A study of Mus musculus with 6 samples.

Results

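The enzymes of the methionine cycle and of transsulfuration were followed at the mRNA level in the liver of mice that lack the kinase Lkb1 in hepatocytes. The set holds 10 genes chosen by name: *Mat1a*, *Mat2a*, *Gnmt*, *Cbs*, *Cth*, *Bhmt*, *Bhmt2*, *Cdo1*, *Csad* and *Mtr*. The rule uses gene names and no measured value, though the genes were chosen with earlier results of these data known. Of the 10 genes, 9 had a probe set that the array annotation gives to 1 gene, out of 19938 genes measured in all, and *Mat2a* had none. Liver RNA was hybridized on 1 Affymetrix mouse gene array per mouse. The 3 Lkb1KOlivad mice bear the numbers B253, B304 and B305. The 3 control mice are B256, B267 and B302, and values of single mice are given in these orders. All 6 mice were female per the labels. According to the study's methods, the Lkb1KOlivad mice are adult Lkb1 fl/fl; TTR-CreTam animals on the FVB/N background, given tamoxifen to start the deletion, and the mice labelled WT are their Cre-negative Lkb1 fl/fl littermates, which also received tamoxifen. The floxed alleles and the tamoxifen are thus shared by both groups. The transthyretin promoter drives Cre in hepatocytes, so other liver cells keep Lkb1. The study gives these livers as fasted, which the labels do not state. Values are log2 RMA signals, a background-corrected and normalized brightness per probe set, in which a difference of 1 is a doubling.

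Methionine enters the cycle when methionine adenosyltransferase turns it into S-adenosylmethionine, the methyl donor of the cell. After the methyl group has been given away, homocysteine remains. Homocysteine is either methylated back to methionine or condensed with serine and carried to cysteine by transsulfuration, which in the body is mainly a task of the liver. Cysteine then goes to glutathione, to taurine or, after loss of its sulfur, to pyruvate, a precursor of glucose. The comparison asks whether the mRNAs of these enzymes differ when Lkb1 is missing from hepatocytes, in a study of amino acid use for glucose production.

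The 2 transsulfuration mRNAs had the largest log2 fold changes of the set, and neither passed the test over all genes. *Cth* had a signal 1.36 times the control level (95% interval 1.07 to 1.73), and the 3 mutant livers all lay above the 3 control livers. *Cbs* stood at 1.42 times the control level (95% interval 0.982 to 2.05). The mRNAs of S-adenosylmethionine synthesis and use, *Mat1a* and *Gnmt*, were at 1.07 and 1.16 times the control level, with overlapping groups. The remethylation mRNAs *Bhmt*, *Bhmt2* and *Mtr* and the cysteine-to-taurine mRNAs *Cdo1* and *Csad* lay between 0.852 and 1.01 times the control level.

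Across all 19938 genes, limma called 0 genes higher (0%) and 1 lower (0.00502%) at an adjusted p under 0.05. The lower gene was *Stk11*, which encodes Lkb1, at 6.42 to 6.52 in the mutant livers and 7.96 to 8.24 in the control livers (log2 fold change -1.64, standard error 0.12, limma adjusted p = 0.00705). Its groups lay apart. The call was kept without control B302 and lost without each of the other 5 mice in turn. No other gene was called, so the members are described by their values, intervals and group overlap. Of the 9 measured members, 0 passed in limma and 0 in the methods' t-test after adjustment, and each had an adjusted p of 0.9997 from limma. At an unadjusted p under 0.05 limma gave 1 member higher (*Cth*), beside 1.52% of all genes, and 0 lower, beside 1.51% (3.03% in either direction). The methods' t-test gave 0 in either direction at that threshold. The methods give this unpaired test for comparing 2 groups in general. For the arrays they name BRB-ArrayTools and refer to an earlier paper. The mutant values were all above the control values for 1 of the 9, beside 3.46% of all genes, and all below for 0, beside 3.7% (7.16% in either direction). The log2 fold change was above 0 for 5 members, beside 51.6% of all genes, and the median over the 9 was 0.01 against 0.00 over all genes.

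**Figure D1:**
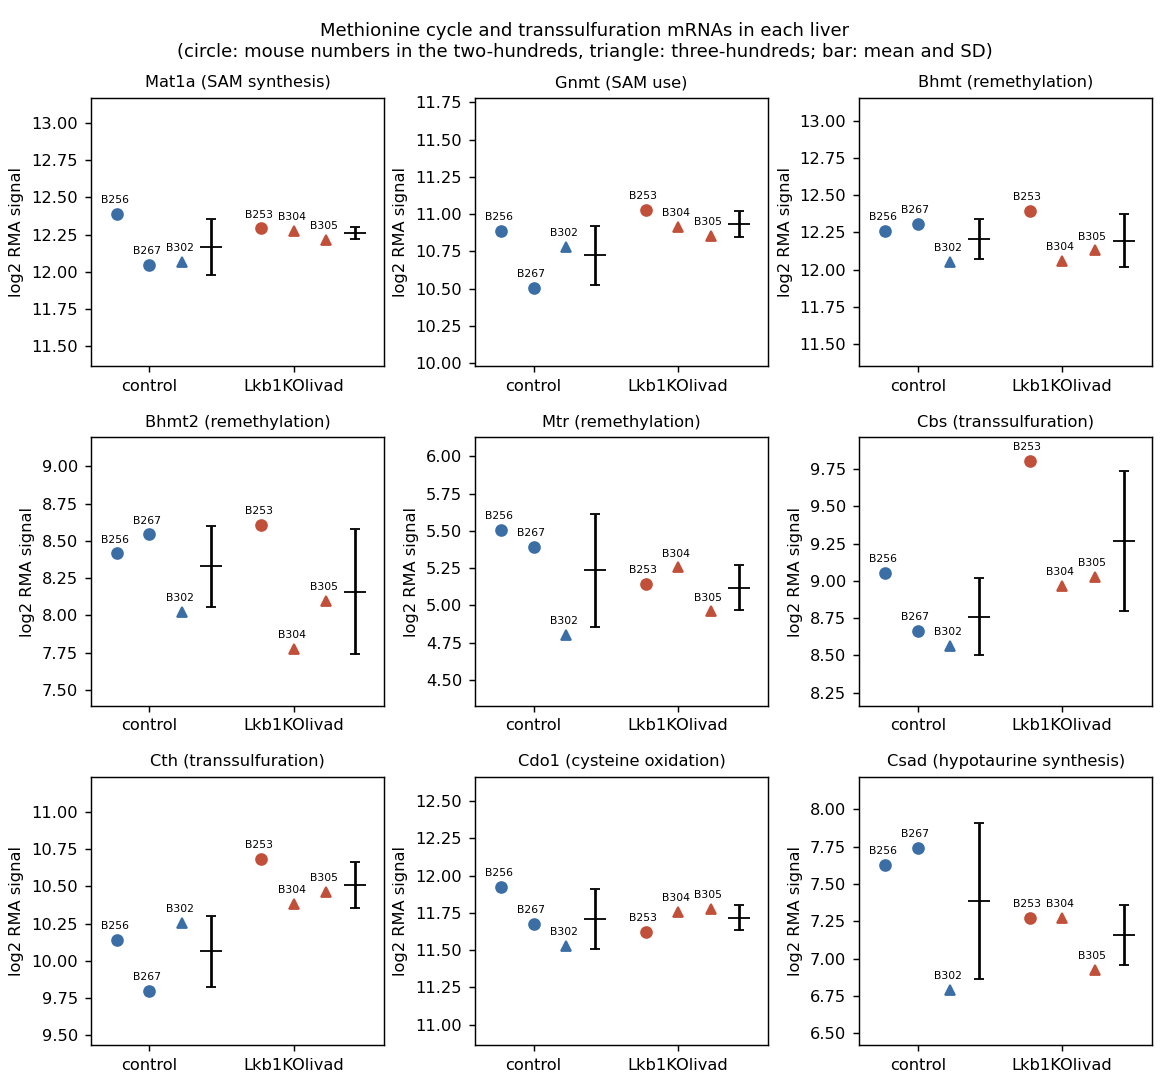
RMA signal (log2) of the 9 measured enzymes in each liver, 1 panel per gene with a range of 1.8 log2 units in each, controls in blue and Lkb1KOlivad in red, with the mean and SD in black. Only *Cth* has all 3 mutant livers (10.38 to 10.68) above all 3 controls (9.80 to 10.26), and in *Cbs* the highest liver, B253, stands apart at 9.81.

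*Mat1a* (probe set 10414192) encodes the liver form of methionine adenosyltransferase, the enzyme that makes S-adenosylmethionine. Its log2 signal was 12.29, 12.28 and 12.22 in the mutant livers and 12.39, 12.05 and 12.07 in the controls. The mutant livers lay within the range of the controls. It differed by 0.09 on the log2 scale (standard error 0.13), with a 95% interval of 0.872 to 1.30 for the fold. *Mat2a*, which encodes the form found in most other tissues, could not be set beside it.

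*Gnmt* (probe set 10451451) encodes glycine N-methyltransferase, which spends S-adenosylmethionine on glycine. It had signals of 11.03, 10.91 and 10.85 in the mutant livers, against 10.88, 10.50 and 10.78 in the controls. Control B256 reached into the mutant range, above B305. The log2 fold change was 0.21 (standard error 0.13), with a two-sided exact permutation test at p = 0.2.

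Homocysteine is methylated back by 3 of the enzymes. *Bhmt* (probe set 10457114) encodes the betaine-dependent methyltransferase of liver. Its signals were 12.39, 12.06 and 12.13 in the mutant livers and 12.26, 12.31 and 12.05 in the controls. The groups overlapped throughout, and the means differed by -0.01 (standard error 0.14). The annotation gives *Bhmt* to 3 probe sets, and the others had log2 fold changes of 0.01 (10511886) and 0.00 (10411142). The probe sets differed in how far single mice lay apart. Probe set 10411142 ranged from 8.55 in B304 to 9.53 in B253, and 10511886 from 11.95 in B302 to 12.37 in B253. The brightest, 10457114, was used for the gene. Which of the 3 reads *Bhmt* itself, and not copies of its sequence, was not tested.

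*Bhmt2* (probe set 10411147), the paralog next to *Bhmt* on the chromosome, encodes a methyltransferase that uses S-methylmethionine. It had signals of 8.61, 7.78 and 8.10 in the mutant livers and of 8.42, 8.54 and 8.03 in the controls. The highest and the lowest liver were both mutant, and the log2 fold change was -0.17 (standard error 0.22). *Mtr* (probe set 10407709), the folate- and cobalamin-dependent methionine synthase, had signals of 5.14, 5.25 and 4.96 in the mutant livers and of 5.51, 5.40 and 4.80 in the controls. The mutant livers lay within the range of the controls, at a difference of -0.12 (standard error 0.19). No detection calls were used here, so whether a low signal such as that of *Mtr* was above background was not tested.

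The difference *Bhmt* minus *Bhmt2* within each array was 3.79, 4.28 and 4.03 in the mutant livers and 3.84, 3.76 and 4.03 in the controls. Its mean was 4.03 ± 0.25 (SD, n = 3) in the mutant and 3.88 ± 0.13 (SD, n = 3) in the control livers, a gap of 0.15. This gap was smaller than the SD of the mutant group and larger than that of the control group. The gap was 0.0298 without B304 and 0.28 without B253. By mouse number, the difference averaged 3.80 in the two-hundreds and 4.11 in the three-hundreds. It uses *Bhmt* probe set 10457114.

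Transsulfuration has 2 enzymes. *Cbs* (probe set 10449712) encodes cystathionine beta-synthase, which joins homocysteine to serine. Its signal was 9.81, 8.97 and 9.02 in the mutant livers and 9.05, 8.66 and 8.56 in the controls. B253 was the highest of the 6, and control B256 lay above mutant mice B304 and B305, so the groups overlapped. The log2 fold change was 0.51 (standard error 0.23, 95% interval -0.03 to 1.04). Without B253 it was 0.24, and without control B256 it was 0.65.

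*Cth* (probe set 10503023) encodes cystathionine gamma-lyase, which splits cystathionine and releases cysteine. Its signal was 10.68, 10.38 and 10.46 in the mutant livers and 10.14, 9.80 and 10.26 in the controls. The lowest mutant liver, B304, stood above the highest control, B302. The log2 fold change was 0.44 (standard error 0.15, 95% interval 0.10 to 0.79), with p = 0.1 in a two-sided exact permutation test, the least that 3 mice against 3 allow. With 1 mouse left out in turn it lay between 0.31 (without control B267) and 0.54 (without control B302), and its unadjusted p under 0.05 in limma was lost without B253 or control B267.

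Cysteine leaves towards taurine by 2 further enzymes. *Cdo1* (probe set 10458828) encodes cysteine dioxygenase, which oxidizes cysteine to cysteine sulfinate. It had signals of 11.62, 11.76 and 11.78 in the mutant livers and of 11.93, 11.68 and 11.53 in the controls. The mutant livers lay within the range of the controls, at a difference of 0.01 (standard error 0.13). *Csad* (probe set 10432939) encodes cysteine sulfinate decarboxylase, which makes hypotaurine. It had signals of 7.27, 7.27 and 6.92 in the mutant livers and of 7.63, 7.74 and 6.79 in the controls. Here too the mutant livers lay inside the control range, and the log2 fold change was -0.23 (standard error 0.24).

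**Figure D2:**
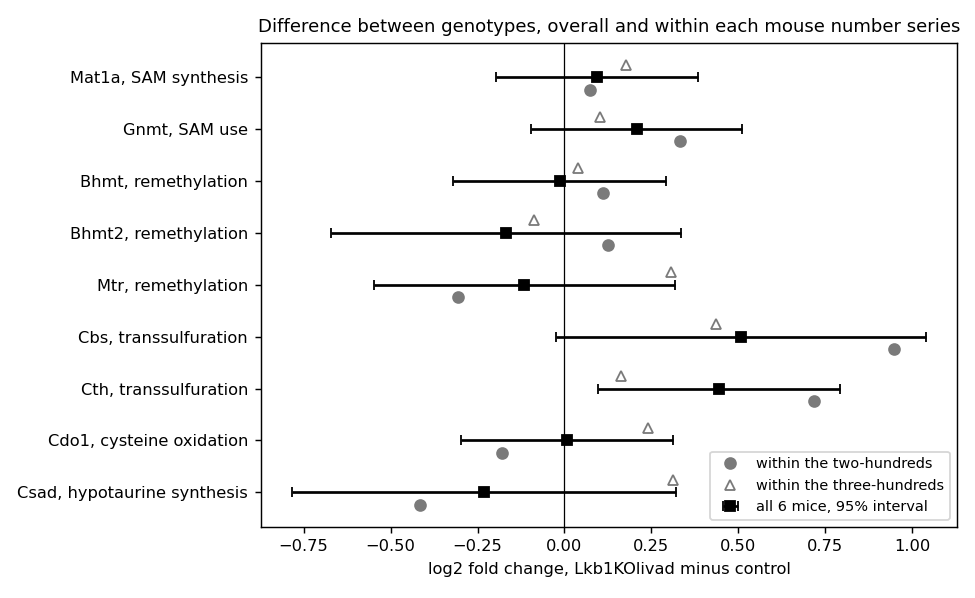
Log2 fold change (Lkb1KOlivad minus control) of each enzyme over all 6 mice, with its 95% interval (squares), and within the mice numbered in the two-hundreds (circles) and in the three-hundreds (triangles). *Cth* is the 1 enzyme whose interval, 0.10 to 0.79, lies above 0, and *Cdo1*, *Csad*, *Mtr* and *Bhmt2* have their circle and triangle on opposite sides of 0.

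The mouse numbers form 2 series. B253, B256 and B267 are in the two-hundreds and B302, B304 and B305 in the three-hundreds, and the labels do not say that the numbers mark a batch. For *Bhmt* and *Bhmt2* every mouse of the three-hundreds lay below every mouse of the two-hundreds, whatever its genotype, beside 7.28% of all genes. For *Bhmt* this held for probe sets 10457114 and 10511886 and not for 10411142, where B302 (8.99) and B305 (9.02) lay above B256 (8.85). *Bhmt2* averaged 8.52 in the two-hundreds and 7.97 in the three-hundreds, and *Csad* averaged 7.55 and 6.99. The gap between series was thus wider than the gap between genotypes for *Bhmt2*, *Csad*, *Mtr*, *Bhmt* and *Cdo1*. For *Cdo1* both were small, at -0.06 between series and 0.01 between genotypes (standard error 0.13). The share of all genes with a wider gap between series was not computed, and the series hold the genotypes in unequal numbers. The part of the series in the genotype values was not tested beyond the values within each series.

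Within both series the log2 fold change was above 0 for *Mat1a*, *Gnmt*, *Bhmt*, *Cbs* and *Cth*, 5 of the 9 members beside 24% of all genes. With probe set 10411142 *Bhmt* leaves this count, at 0.49 in the two-hundreds and -0.21 in the three-hundreds. For *Cbs* it was 0.95 in the two-hundreds and 0.44 in the three-hundreds, and for *Cth* 0.72 and 0.16. For *Gnmt* it was 0.33 and 0.10, for *Mat1a* 0.07 and 0.18. The other 4 members had opposite signs in the series, beside 50.7% of all genes. *Csad* had -0.42 in the two-hundreds and 0.31 in the three-hundreds, and *Mtr* -0.31 and 0.31. *Cdo1* had -0.18 and 0.24, *Bhmt2* 0.13 and -0.09. The two-hundreds hold 1 mutant mouse, B253, and the three-hundreds 1 control, B302. Each of these values therefore rests on that mouse, and their difference was not tested.

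With the series as a block, the log2 fold change was 0.69 for *Cbs* (standard error 0.17) and 0.44 for *Cth* (standard error 0.17). Both then had an unadjusted p under 0.05, 2 of 9 members beside 2.95% of all genes. None was lower, beside 2.07% (5.02% in either direction). Neither passed over all genes (adjusted p = 0.889 and 0.964 from limma). *Bhmt*, *Bhmt2*, *Cdo1*, *Csad* and *Mtr* lay between -0.05 and 0.07 with the block.

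**Figure D3:**
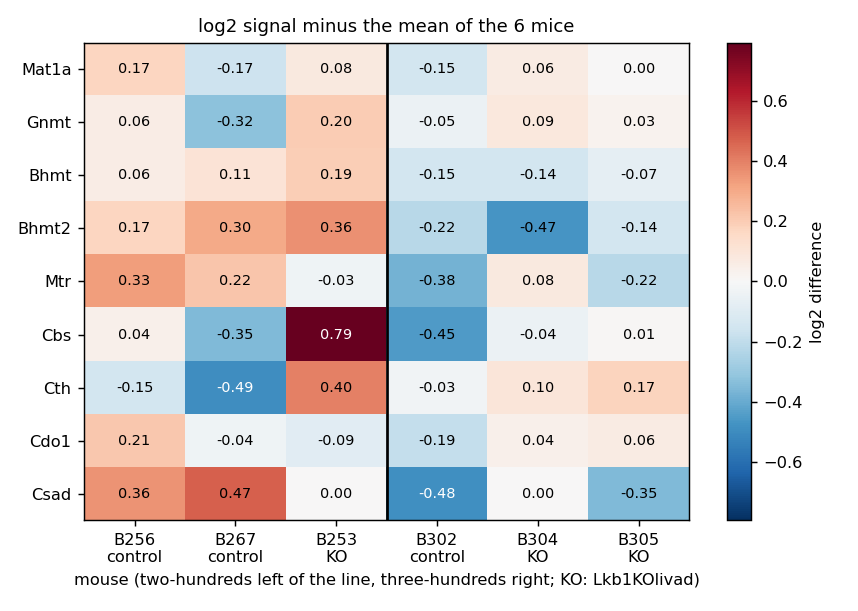
Log2 signal of each enzyme per mouse, centred on its mean over the 6 mice, with the two-hundreds left and the three-hundreds right of the line and KO standing for Lkb1KOlivad. The row of *Bhmt2* runs from 0.17 to 0.36 on the left and from -0.47 to -0.14 on the right, while the row of *Cth* is above 0 in the 3 mutant mice and below 0 in the 3 controls.

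The individual mice differed across the set. B253 had the highest signal of the 6 mice for 5 members (*Gnmt*, *Cbs*, *Cth*, *Bhmt* and *Bhmt2*), and control B302 the lowest for 5 (*Cbs*, *Bhmt*, *Cdo1*, *Csad* and *Mtr*). Control B256 was highest for 3 and among the upper 3 mice for 8 of the 9. Averaged over the 9 members and set against the control mean, the log2 signal was 0.25, 0.01 and -0.02 in the mutant livers and 0.18, 0.01 and -0.19 in the controls. On this average the groups overlapped.

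Promoter sequences are shown for *Cbs*, the member with the largest log2 fold change, for *Gnmt*, and for the neighbours *Bhmt* and *Bhmt2*. The signals of these neighbours split by mouse number series, for *Bhmt* in probe sets 10457114 and 10511886 and not in 10411142. The sequences come from RefSeq on GRCm38.p6, each 250 bases before to 50 after the annotated start, read 5′ to 3′ on the strand of the gene. Of the 10 members, 7 had a promoter that was searched. *Mat1a* and *Cth* had no entry among the promoters available, and *Cdo1* was left out of the search. Capitals mark every match, on either strand, to a CCAAT box (CCAAT), a GC box (GGGCGG) or an E-box (CACGTG).

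Cbs, chr17:31637156-31637455, minus strand: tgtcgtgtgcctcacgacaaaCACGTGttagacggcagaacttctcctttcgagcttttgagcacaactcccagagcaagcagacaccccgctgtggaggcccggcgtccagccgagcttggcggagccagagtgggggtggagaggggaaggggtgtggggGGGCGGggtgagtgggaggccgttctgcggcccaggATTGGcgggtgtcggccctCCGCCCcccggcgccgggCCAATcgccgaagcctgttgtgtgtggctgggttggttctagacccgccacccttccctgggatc

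Gnmt, chr17:46729116-46729415, minus strand: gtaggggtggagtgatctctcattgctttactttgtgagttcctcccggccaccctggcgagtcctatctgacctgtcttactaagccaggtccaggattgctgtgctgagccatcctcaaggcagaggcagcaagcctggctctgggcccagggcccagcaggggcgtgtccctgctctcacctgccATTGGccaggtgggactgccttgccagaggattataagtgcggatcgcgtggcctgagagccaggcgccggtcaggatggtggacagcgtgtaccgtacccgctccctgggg

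Bhmt, chr13:93637709-93638008, minus strand: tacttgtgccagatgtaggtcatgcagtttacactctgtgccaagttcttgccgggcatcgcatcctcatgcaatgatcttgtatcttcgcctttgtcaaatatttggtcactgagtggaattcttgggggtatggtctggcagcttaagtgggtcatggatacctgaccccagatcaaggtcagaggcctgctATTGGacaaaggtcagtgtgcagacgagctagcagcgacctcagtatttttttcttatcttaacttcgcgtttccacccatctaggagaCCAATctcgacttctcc

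Bhmt2, chr13:93674253-93674552, minus strand: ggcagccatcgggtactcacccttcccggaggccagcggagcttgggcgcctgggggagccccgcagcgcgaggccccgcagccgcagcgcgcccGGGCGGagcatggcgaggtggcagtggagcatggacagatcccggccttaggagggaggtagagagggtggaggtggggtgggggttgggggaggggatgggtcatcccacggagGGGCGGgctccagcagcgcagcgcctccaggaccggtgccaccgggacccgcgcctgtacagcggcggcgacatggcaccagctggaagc

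The window of *Cbs* holds 2 CCAAT boxes, starting 52 and 15 bases before the annotated start, 2 GC boxes and 1 E-box. That of *Gnmt* holds 1 CCAAT box, 62 bases before the start, and that of *Bhmt* 2, of which 1 lies after the start. The window of *Bhmt2* has 2 GC boxes and no CCAAT box, with 26 CpG dinucleotides against 8 in *Bhmt*. Among 32851 promoter windows of the same length, 37.4% hold a CCAAT box, 35.7% a GC box and 7.15% an E-box. The cAMP element TGACGTCA, the TGACG that it contains, the amino acid response motif TGATGNAAN and the antioxidant motif TGACNNNGC were searched in the same way and were not in these 4 windows. Among the other members searched, TGACG was in 1 window of *Csad*, starting 54 bases before the start, and in that of *Mtr*, starting 6 bases before. The rest of these motifs were in no searched window of a member. In the order given, the 4 motifs occur in 1.79%, 20.8%, 3.95% and 12.4% of all windows. The matches are letters in a window and were not tested as binding sites.

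The neighbouring steps were described from 6 lists of 89 genes, of which 81 were measured. In limma 0 of the 81 passed at an adjusted p under 0.05, with 3 higher and 2 lower at an unadjusted p under 0.05, beside 1.52% and 1.51% of all genes. Their log2 fold changes had a median of 0.08, against 0.00 over all genes, and were above 0 for 58, beside 51.6% of all genes. Within both mouse number series they were above 0 for 33, beside 24% of all genes. For 41 the signs in the series were opposite, beside 50.7% of all genes. All mutant values lay above all control values for 3 of the 81, beside 3.46% of all genes, and below for 2, beside 3.7%. The lists were chosen with earlier results of these data known.

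The lower gene with the smallest p was *Chac1* (probe set 10474972), which encodes an enzyme that breaks down glutathione. Its signal was 5.95, 6.11 and 6.14 in the mutant livers and 6.79, 6.53 and 6.93 in the controls. The mutant livers lay below all controls, and the difference was -0.69 on the log2 scale (standard error 0.14, limma adjusted p = 0.9997). It was -0.71 within the two-hundreds and -0.81 within the three-hundreds. In the same list of 21 measured genes of cysteine, glutathione and taurine, *Ggct*, which also acts in glutathione breakdown, stood at 0.29 (standard error 0.16). *Tst*, a mitochondrial sulfurtransferase, stood at 0.21 (standard error 0.12) and *Got1*, the cytosolic aspartate aminotransferase, at 0.37 (standard error 0.22). The list median was 0.03.

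Among genes of transport and sensing, *Nfe2l2* (probe set 10483809), which encodes the antioxidant regulator Nrf2, had signals of 8.92, 9.06 and 8.84 in the mutant livers and of 8.004, 8.55 and 8.10 in the controls. The mutant livers lay above all controls, at a difference of 0.72 (standard error 0.16, limma adjusted p = 0.9997). *Gclc* and *Gclm*, subunits of the first enzyme of glutathione synthesis and known targets of Nrf2, had log2 fold changes of 0.02 (standard error 0.22) and 0.14 (standard error 0.23). Within the two-hundreds and the three-hundreds *Gclc* had -0.19 and 0.51, *Gclm* -0.06 and 0.61, and *Nfe2l2* 0.65 and 0.85. With the series as a block *Gclc* stood at 0.16 (standard error 0.19), *Gclm* at 0.28 (standard error 0.21) and *Nfe2l2* at 0.75 (standard error 0.17). *Slc3a1*, a subunit of a cystine transporter, stood at 0.54 (standard error 0.20), and *Slc43a1*, a transporter of large neutral amino acids, at -0.47 (standard error 0.20). *Slc7a2*, a transporter of cationic amino acids, stood at 0.30 (standard error 0.19). *Atf4*, the regulator of the amino acid response, stood at 0.03 (standard error 0.12).

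Of 17 measured genes of folate and cobalamin supply, 12 had a log2 fold change above 0, beside 51.6% of all genes. *Mthfd1*, which interconverts forms of folate, had signals of 8.75, 8.50 and 8.64 in the mutant livers, all above the 8.29, 8.47 and 8.30 of the controls. Its log2 fold change was 0.28 (standard error 0.12), that of *Shmt1*, which takes a carbon from serine, 0.27 (standard error 0.15), and that of *Mthfd2*, a mitochondrial folate enzyme, 0.37 (standard error 0.24). *Tcn2*, the carrier of cobalamin in blood, stood at -0.32 (standard error 0.16). None of the 17 passed over all genes.

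Methyl transfer had a list median of 0.21 over 10 measured genes, with 7 above 0, beside 51.6% of all genes. Of the 10, 0 had an unadjusted p under 0.05 in limma, beside 3.03% of all genes. The median was 0.0605 without control B302. The list included *Nnmt*, which methylates nicotinamide, at 0.50 (standard error 0.33), *Tpmt*, which methylates thiopurines, at 0.42 (standard error 0.26), *Adk*, which removes the adenosine left by the cycle, at 0.20 (standard error 0.12), and *Ahcyl2* at 0.22 (standard error 0.22). Within the two-hundreds and the three-hundreds *Nnmt* had 0.88 and -0.13, and *Tpmt* 0.04 and 0.95. In the same order *Adk* had 0.21 and 0.31, and *Ahcyl2* 0.09 and 0.69. *Ahcy*, the hydrolase that forms homocysteine, had no probe set with 1 gene name here. The 9 genes of choline and betaine had a median of 0.14, which was -0.0261 without B253, with *Chka*, which phosphorylates choline, at 0.41 (standard error 0.28). *Aldh7a1*, an aldehyde dehydrogenase, stood at 0.21 (standard error 0.15), the choline transporter *Slc44a1* at 0.23 (standard error 0.18) and *Pipox*, which oxidizes sarcosine, at 0.16 (standard error 0.14). The 8 genes of methionine salvage and polyamines had a median of 0.02 (-0.0524 without control B302 and 0.14 without control B256), with *Apip* at 0.20 (standard error 0.14) and *Srm*, spermidine synthase, at 0.15 (standard error 0.12).

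**Figure D4:**
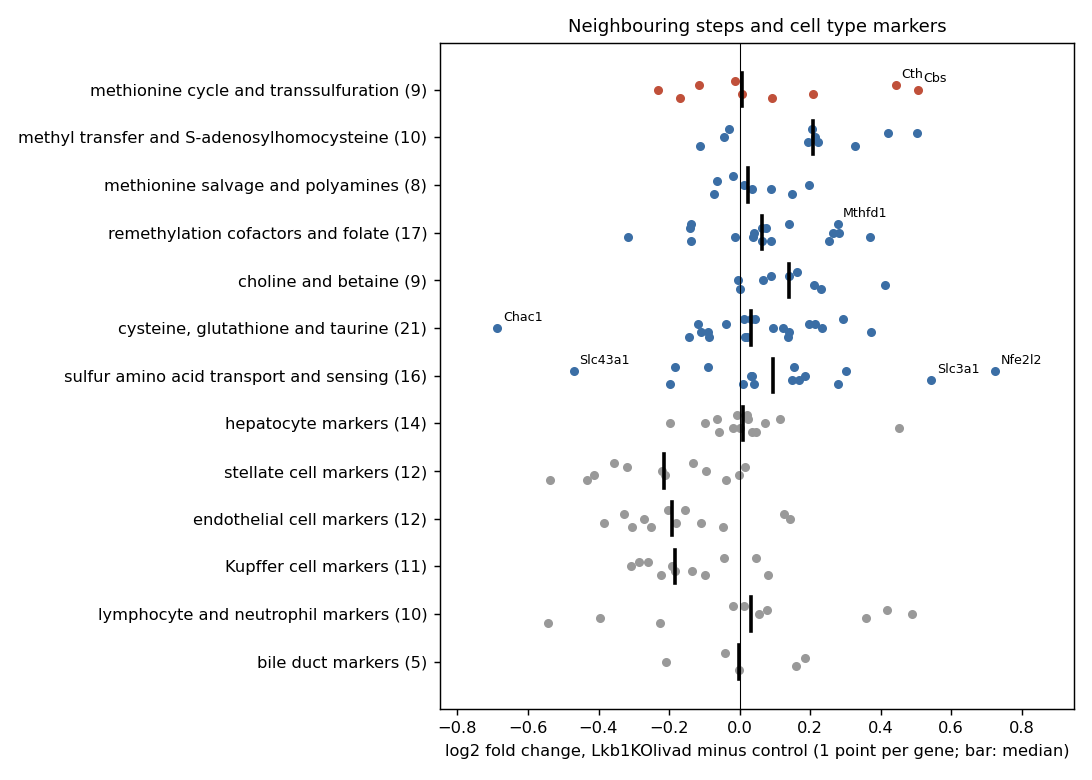
Log2 fold change (Lkb1KOlivad minus control) of each measured gene in the methionine cycle and transsulfuration set (red), in the 6 lists of neighbouring steps (blue) and in 6 lists of cell type markers (grey), with the number of genes in brackets and the list median as a bar. *Nfe2l2* at 0.72 and *Chac1* at -0.69 lie farthest out among the neighbouring steps, and the medians of stellate, endothelial and Kupffer cell markers lie at -0.22, -0.19 and -0.18.

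Fewer cells of a type and less RNA per cell cannot be told apart in whole liver. The 14 measured hepatocyte markers had mean signals of 9.74 to 12.6 and a median log2 fold change of 0.01, with 8 above 0, beside 51.6% of all genes. Their summed log2 signal was 159 to 164 in the controls and 160 to 163 in the mutant livers. Of the stellate cell markers 11 of 12 had a log2 fold change below 0, where 51.6% of all genes were above 0. *Lrat*, which stores retinol as esters, stood at -0.43 (standard error 0.14). The summed signal of the stellate markers was 75.9 to 78.1 in the controls and 72.3 to 75.3 in the mutant livers. The log2 fold change was below 0 for 10 of 12 endothelial markers (summed signals of 79.5 to 83.4 and 78.3 to 79.9 in the same order). It was below 0 for 9 of 11 Kupffer cell markers (76.3 to 83.2 and 77.0 to 80.8). Single mice set these medians in part. That of the stellate cell markers was -0.1143 without B304, -0.3181 without control B302 and -0.1176 when blocked on series. That of the endothelial markers was 0.0087 without control B256 and -0.113 when blocked on series. That of the Kupffer cell markers was -0.0414 without B304 and -0.0509 when blocked on series. The median was 0.03 for 10 markers of lymphocytes and neutrophils, with summed signals of 45.9 to 48.9 in the controls and 46.8 to 47.4 in the mutant livers. It was 0.00 for 5 of bile ducts, at 22.5 to 22.8 and 22.2 to 23.3. No marker was at 0, the lowest log2 signal in the table being 1.59. Their part in the values of the enzymes was not tested.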

How the data were processed

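Liver RNA of 3 Lkb1KOlivad and 3 control mice was measured with 1 array per mouse. The deposited values are log2 RMA signals (background-corrected, normalized between arrays and summarized per probe set by the authors), and RMA and Partek are the tools in the submitters' processing notes. The methods add Expression Console and BRB-ArrayTools, without versions. They also name a later generation of Mouse Gene ST array than the platform annotation used here for gene names, and this difference was not resolved. Of 35556 probe sets, 21789 had 1 gene symbol in the platform annotation, 1621 had several and 12146 none. Symbols were updated by gene identifier (21698 found), and the brightest probe set per gene was kept, which gave 19938 genes. Array medians lay between 5.03 and 5.08, and no intensity filter was used. Groups were compared with limma 3.58.1 in R 4.3.3 (lmFit, eBayes, two-sided, no covariate, Benjamini-Hochberg over all genes, threshold 0.05), with exact permutation tests for single genes. The sample titles name 6 separate mice, whose number limits the precision. The procedure was tested on simulated data.

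The members and lists were chosen with earlier results of these data known. Genes named are all members, *Stk11*, up to 4 genes with the smallest unadjusted p in each other list (1, *Lrat*, from the cell type markers), and the 5 genes closest to the members' mean profile. *Gclc*, *Gclm* and *Atf4* were named after their values were seen. The alternatives were quantile normalization, median centring, leaving out dim genes, averaging the probe sets of a gene, weighting the arrays, robust estimation with a trend on intensity, the methods' t-test, blocking on the mouse number series and leaving out each mouse. Matplotlib 3.10.9 (Python 3.11.15) drew the figures.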

Additional observations from a re-analysis of the deposited data

How the results depend on the processing

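In all alternatives run, 0 of the measured members passed at an adjusted p under 0.05, and *Mat1a*, *Gnmt*, *Cbs*, *Cth* and *Csad* kept their sign. With 1 mouse left out, *Mat1a* lay between 0.0333 and 0.20, *Gnmt* between 0.0987 and 0.29 and *Csad* between -0.53 and -0.0524. The list medians then lay between 0.0605 and 0.24 for methyl transfer, -0.0113 and 0.12 for folate, 0.0053 and 0.11 for cysteine and 0.0264 and 0.12 for transport. *Cth* lay between 0.31 and 0.54 and *Cbs* between 0.24 (without B253) and 0.69 (blocking on the mouse number series). The members higher at an unadjusted p under 0.05 numbered 0 in the methods' t-test, 2 with the series as a block and 0 to 2 with 1 mouse left out, and those lower numbered 0 to 2 (*Csad* and *Mtr* without control B302). Values near 0 changed sign. *Bhmt* (-0.01) was 0.001 as the mean of its probe sets, 0.0745 with the series as a block and -0.11 to 0.0539 with 1 mouse left out. *Bhmt2* (-0.17) was 0.0187 with the block and -0.39 to 0.0241 with 1 mouse left out. *Cdo1* (0.01) was -0.0291 after quantile normalization, -0.0046 with array weights and -0.0837 to 0.12 with 1 mouse left out. *Mtr* (-0.12) was -0.33 to 0.021 with 1 mouse left out and could not be fitted where dim genes were left out. Over all genes, 0 were called in the methods' t-test and 0 to 1 with 1 mouse left out. *Stk11* had adjusted p = 0.566 in that test (log2 fold change of -1.64) and lay between -1.71 and -1.57 with 1 mouse left out. No paired analysis was possible because the labels give no replicate numbers shared between the groups. The cause of these differences was not tested.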

Other observations

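Among 3996 genes outside the set with a mean log2 signal of at least 7, 5 had the profile over the 6 mice closest to the mean of the members, each centred on its own mean. They were *Adam9* (root mean square difference of 0.0217), *Park7* (0.0235), *Mrpl2* (0.0323), *Itih3* (0.0351) and *Pgm1* (0.0354), on the log2 scale. The members' mean was 0.21 in B253, 0.14 in B256, -0.03 in B267, -0.23 in B302, -0.03 in B304 and -0.06 in B305. This mean profile is high in 1 mutant and 1 control mouse of the two-hundreds and low in 1 control mouse of the three-hundreds. Single members departed from it, as *Cth* did with -0.15 in control B256. *Adam9*, a membrane protease picked for its likeness to the members' mean, had 0.24, 0.15, -0.03, -0.21, -0.06 and -0.09 in the same order of mice.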
